A study of Mus musculus with 9 samples.

Results

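Monocyte prog I is a population of bone marrow cells for which the authors' marker table lists 20 genes, out of 234 different genes listed for 17 populations. All entries that name this population were taken, with no further choice by value. Marrow mononuclear cells of 9 C57BL/KaLwRij mice, aged 12 weeks, had been profiled by droplet-based single-cell RNA-Seq. Going by the agent label, there were 2 Control mice, 3 PBS mice and 3 CST6 mice, and 1 mouse had no such label. One title in the PBS group is written like those of the controls, and the study describes equally large groups, so the assignment of single mice is uncertain. PBS and CST6 mice carried 5TGM1 cells, a mouse myeloma line that grows in the marrow of this strain, and control mice carried none. CST6 mice also received recombinant mouse Cst6 (cystatin M/E), a secreted inhibitor of cysteine proteases. GFP-marked myeloma cells had been sorted out before sequencing, so the cells measured were the remaining mononuclear marrow.

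The table pools all mice, and no result below uses the group label of a mouse. The shares and sizes are those of this mix of groups and could differ between the groups. For each listed gene it gives the share of cells in the population with a value above 0, and the same share among all other cells, both printed here in percent. The difference of these shares is called the gain, in percentage points. The table has 1 value per gene and population, with no replicates, and gives neither cell numbers nor depth. No error can be given, and no difference was tested, since the genes had been picked by the authors for separating the population from the rest. It is not stated whether a share was taken from UMI-based or batch-integrated values. A value above 0 thus need not mean that the transcript was detected in that cell. Many shares are also close to 100%, so a share cannot be read as an amount of transcript.

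Monocytes arise in the marrow from dividing progenitors. These cells take up monocyte genes while still in the cell cycle, stop dividing and leave for the blood, or become macrophages, dendritic cells or, on bone, osteoclasts. A progenitor that is dividing carries transcripts for DNA replication, for histones to pack the new DNA, and for the spindle that separates the chromosomes. The 20 genes were grouped by function: 5 are monocyte and adhesion genes, 6 serve mitosis or replication and 3 encode histones. The other 6 were placed with the cytoskeleton or the nuclear envelope. Of these, Crip1 also stands in the monocyte list used below, and S100a10 in the list of S100 and annexin genes. Over the 20 genes, the median share was 97.85% of Monocyte prog I cells and 72.35% of other cells, and the median gain was 25.55 points. That gain ranked 11 of 17 among the populations, from the highest down. Each of the 20 genes had a value in most other marrow cells too, from 54% for H2ax to 85.7% for Mki67.

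Promoter sequences are shown because the rule that chose the genes did not use them. Genes of late cell cycle often carry a cell cycle genes homology region (CHR, letters TTTGAA), which the MuvB complex binds, and CCAAT boxes, which NF-Y binds. The promoters of the 5 mitosis members and of the monocyte gene F13a1 are printed here from RefSeq, build GRCm38.p6, each from 250 bases before to 50 bases after a start site. Top2a lies at chr11:99024140-99024439 on the minus strand, Mki67 at chr7:135716330-135716629 on the minus strand, Kif11 at chr19:37376132-37376431 on the plus strand, Prc1 at chr7:80294201-80294500 on the plus strand, Birc5 at chr11:117848987-117849286 on the plus strand and F13a1 at chr13:37049164-37049463 on the minus strand. Of the start sites of Prc1 and F13a1, 1 each is printed, and that of F13a1 was chosen after its matches were seen, for the PU.1 letters. Capitals mark CHR and CCAAT matches, on either strand, so that a match on the opposite strand reads TTCAAA or ATTGG. In F13a1 they mark its match to GAGGAAGT, letters bound by PU.1, a transcription factor of myeloid cells.
Top2a: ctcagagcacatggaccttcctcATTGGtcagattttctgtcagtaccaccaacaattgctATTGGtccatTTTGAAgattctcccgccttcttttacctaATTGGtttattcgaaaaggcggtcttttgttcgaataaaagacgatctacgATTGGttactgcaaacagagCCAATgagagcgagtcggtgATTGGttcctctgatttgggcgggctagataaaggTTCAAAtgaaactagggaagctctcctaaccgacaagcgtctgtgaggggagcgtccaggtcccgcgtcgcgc
Mki67: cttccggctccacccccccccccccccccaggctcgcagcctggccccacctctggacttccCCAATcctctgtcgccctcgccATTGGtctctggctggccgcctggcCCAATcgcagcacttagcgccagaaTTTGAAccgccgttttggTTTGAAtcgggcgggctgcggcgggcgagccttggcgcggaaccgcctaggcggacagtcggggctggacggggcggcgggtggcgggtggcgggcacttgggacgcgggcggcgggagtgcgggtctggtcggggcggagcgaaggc
Kif11: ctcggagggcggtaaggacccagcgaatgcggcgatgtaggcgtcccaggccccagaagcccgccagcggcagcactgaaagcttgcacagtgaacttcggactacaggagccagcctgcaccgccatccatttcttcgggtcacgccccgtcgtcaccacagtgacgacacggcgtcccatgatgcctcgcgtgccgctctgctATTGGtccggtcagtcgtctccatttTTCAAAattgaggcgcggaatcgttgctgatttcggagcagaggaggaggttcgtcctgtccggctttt
Prc1: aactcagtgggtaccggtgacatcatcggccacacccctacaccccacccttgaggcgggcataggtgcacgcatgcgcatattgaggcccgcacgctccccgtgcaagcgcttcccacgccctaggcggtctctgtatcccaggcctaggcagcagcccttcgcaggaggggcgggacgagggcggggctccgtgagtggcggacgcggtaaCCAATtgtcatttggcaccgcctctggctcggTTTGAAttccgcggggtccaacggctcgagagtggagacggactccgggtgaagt
Birc5: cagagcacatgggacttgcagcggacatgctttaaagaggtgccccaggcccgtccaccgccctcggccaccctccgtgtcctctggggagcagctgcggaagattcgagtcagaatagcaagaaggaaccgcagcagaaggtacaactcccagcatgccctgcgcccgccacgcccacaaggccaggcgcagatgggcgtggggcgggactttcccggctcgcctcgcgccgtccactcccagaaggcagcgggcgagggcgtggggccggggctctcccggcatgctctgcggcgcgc
F13a1: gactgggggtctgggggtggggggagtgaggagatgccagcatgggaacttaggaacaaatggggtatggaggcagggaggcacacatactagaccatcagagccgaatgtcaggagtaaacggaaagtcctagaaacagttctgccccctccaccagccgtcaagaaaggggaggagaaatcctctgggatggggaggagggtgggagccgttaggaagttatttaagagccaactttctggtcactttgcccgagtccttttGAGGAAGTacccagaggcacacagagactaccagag

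Kif11 and Prc1 each held a single CCAAT followed by a single CHR just before the start. In Kif11 the first bases of the matches were 45 and 19 bases before the start, and in Prc1 37 and 5. Counted from the other start site of Prc1, the distances were 62 and 30 bases. Mki67 held CCAAT 188, 166 and 141 bases before the start, and CHR at 116 and 98 bases. Top2a had 6 CCAAT matches, of which the closest was 58 bases before the start, and CHR at 179 and 23 bases. Birc5 held neither motif. F13a1 held neither in the window printed, and the PU.1 letters began 14 bases after the start site. A second F13a1 window, further upstream, held a CCAAT 244 bases before its start.

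Of the 20 members, 17 had a promoter window, and Fn1, S100a10 and H2ax had none. CHR occurred in 5 of 8 mitosis, replication and histone members (Top2a, Mki67, Kif11, Prc1 and H1f5) and in 2 of the 9 other members (Itga1 and Tmpo). The same letters occurred in 20.2% of 27025 genes with such a window. CCAAT occurred in 7 of the 8, all but Birc5, and in 3 of the 9 others (F13a1, Tubb5 and Tmpo), against 41.1% of all genes. Both motifs stood in 1 window in 5 members, the same that held CHR among the 8, and in 7.97% of all genes. The letters TTTNGCGC, a form of the E2F site, occurred in 0 of the 8, in Tmpo among the others, and in 1.57% of all genes. PU.1 letters occurred only in F13a1 among the 17 members, and in 3.69% of all genes. No CHR and CCAAT matches overlapped. A match shows that the letters are there and not that a factor binds them. The 8 were grouped by function and set against all genes, not against other cell cycle genes. Their counts thus give no trait particular to Monocyte prog I.

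**Figure D1:**
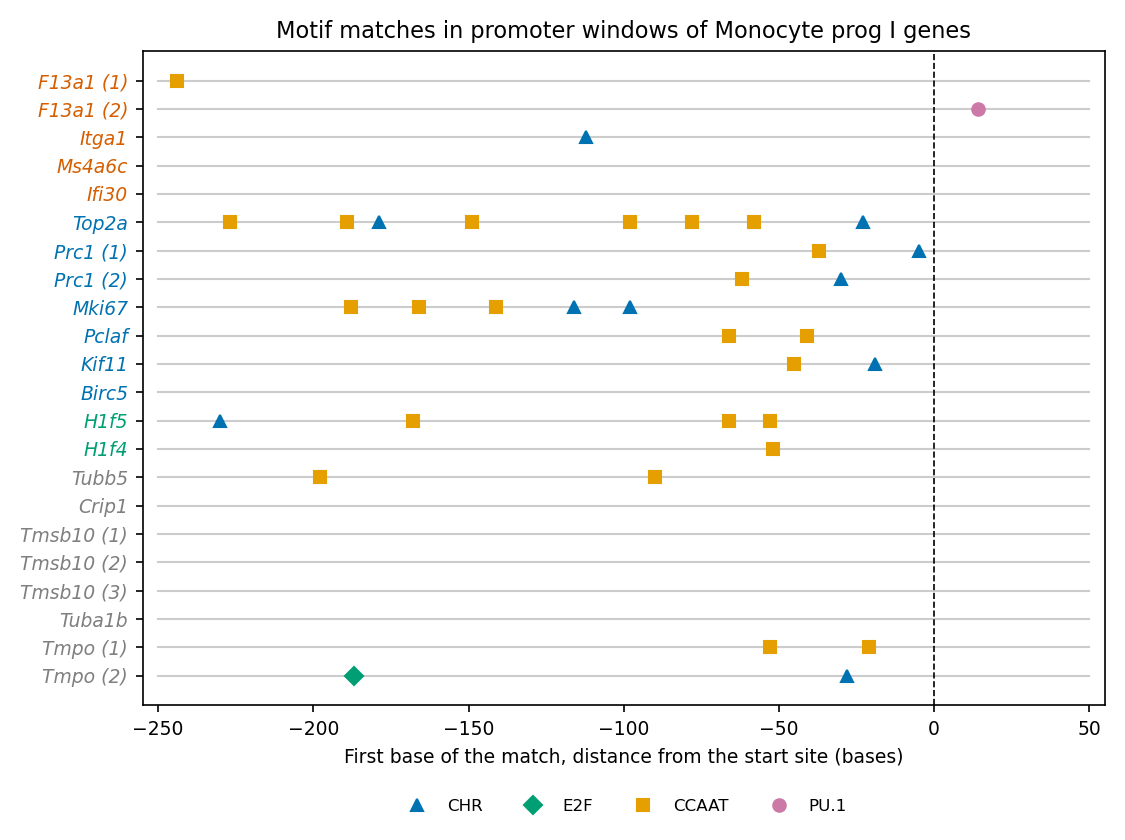
Each line is a 300-base promoter window of a Monocyte prog I gene, with the distance from the start site in bases on the x axis and markers at the first base of each match on either strand. Gene names are coloured by function (orange, monocyte and adhesion; blue, mitosis and replication; green, histone; gray, cytoskeleton and nuclear envelope), and numbers in parentheses tell apart several start sites of a gene. CHR (triangles) lies in 5 of 8 mitosis, replication and histone genes, and CCAAT (squares) in 7 of 8.

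The monocyte and adhesion genes had shares of 93.3% to 99.2% in Monocyte prog I and of 63.3% to 73.2% in other cells, with a median gain of 27.7 points. F13a1, which encodes the A subunit of coagulation factor XIII, a transglutaminase that cross-links fibrin, had a value in 99.2% of the cells and in 73.2% of other cells. Fn1, which encodes the matrix protein fibronectin, had a value in 97.1% against 63.3%. Its gain of 33.8 points was the second largest of the 20. Itga1 encodes integrin alpha 1, which pairs with beta 1 to bind collagen, and had the lowest share inside, 93.3%, against 65.6% of other cells. Ifi30, which encodes a lysosomal thiol reductase used in antigen processing, had a value in 96.8% against 68.1%. Ms4a6c, a gene of the membrane-spanning 4A family expressed in monocytes and macrophages, had a value in 97.6% against 71.8%.

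The 6 mitosis and replication genes had shares of 95.8% to 99.9% inside and of 68.3% to 85.7% in other cells. Prc1, whose protein bundles the microtubules of the central spindle, had the largest gain of these, with 97.4% against 68.3%. Pclaf, whose protein binds the replication clamp PCNA, had a value in 98.1% against 70%. Kif11 encodes the kinesin that pushes the spindle poles apart, and had a value in 96.3% against 71%. Birc5 (survivin), a member of the chromosomal passenger complex, had a value in 95.8% against 72.9%. Top2a, the topoisomerase that untangles DNA before chromosomes separate, had a value in 99.7% against 80.2%. Mki67, the standard proliferation marker, had a value in 99.9% of the cells but also in 85.7% of other cells, which left the smallest gain of the 20, 14.2 points. The genes with the highest shares inside were thus not those with the largest gains.

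The histone genes differed widely among themselves. H2ax, which encodes the H2A variant that is phosphorylated at DNA breaks, had a value in 94.8% of Monocyte prog I cells and in 54% of other cells, and its gain of 40.8 points was the largest of the 20. The linker histone genes H1f4 and H1f5 had values in 95.8% and 96.1% of the cells, but in 75.6% and 81.3% of other cells, with gains of 20.2 and 14.8 points.

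The cytoskeleton and nuclear envelope genes had a value in nearly every cell of the population, in 98.6% to 99.9%. The tubulin genes Tuba1b and Tubb5 had values in 99.1% and 99.6% of the cells, against 69.1% and 76.8% of others. Crip1, a small LIM domain protein, had a value in 99.2% against 70.1%. S100a10, the partner of annexin A2, had a value in 98.6% against 75.4%. Tmpo, which encodes the lamina-associated polypeptide 2 of the inner nuclear membrane, had a value in 99.2% against 80.3%, and Tmsb10, whose protein binds actin monomers, in 99.9% against 84.7%. Tuba1b, Tubb5, H1f4, H1f5 and Ms4a6c have close relatives in the genome, and it is not stated how reads shared with these were counted.

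**Figure D2:**
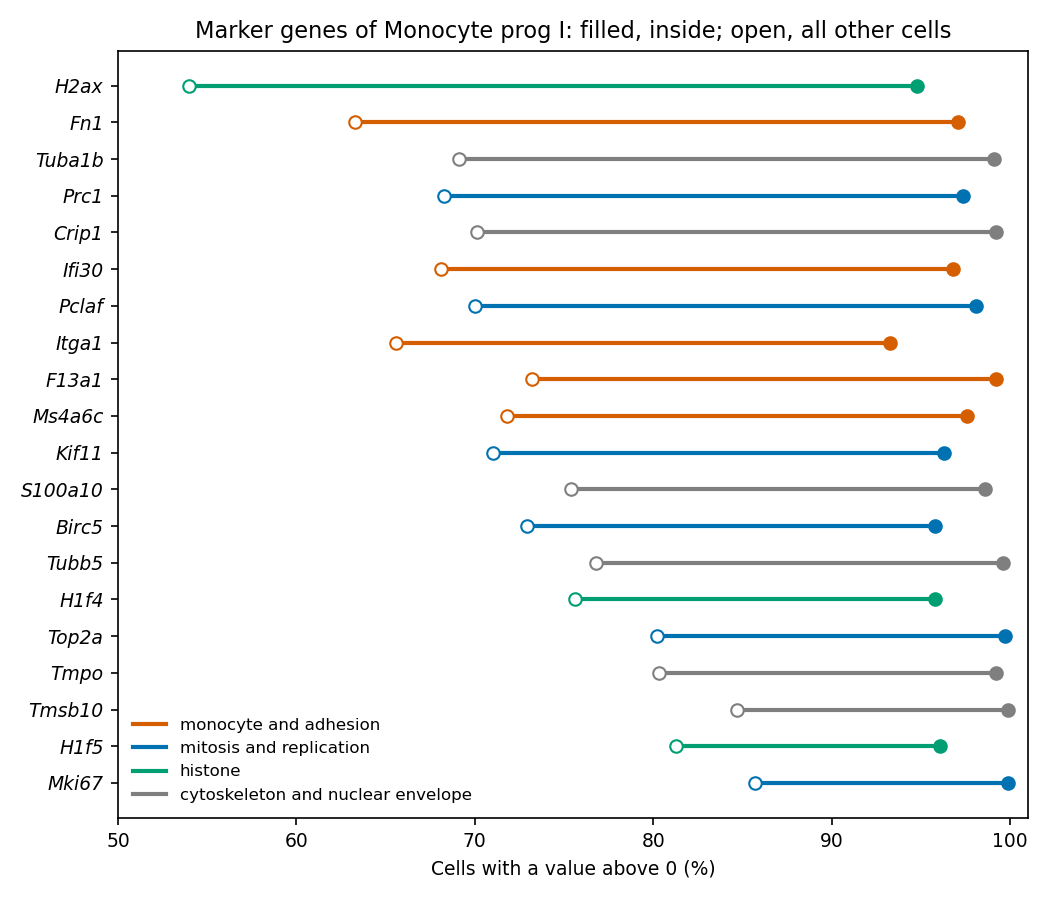
Percent of cells with a value above 0 (x axis, from 50%) for the 20 genes of Monocyte prog I, ordered by gain, with filled circles for the population and open circles for all other cells. Colours give the function, and the line between the circles is the gain, which runs from 40.8 points for H2ax to 14.2 points for Mki67.

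Set against wider gene lists, the entries of Monocyte prog I came mainly from the monocyte, cell cycle and cytoskeleton lists. The lists were chosen with earlier results of these data known, so the counts are a description and no independent check. Of 28 monocyte genes, 15 were listed for some population and 5 for Monocyte prog I (F13a1, Fn1, Crip1, Ifi30 and Ms4a6c). Macrophages listed 12 of them, Monocytes 6 and Monocyte prog II 1. Among 46 mitosis genes, 11 were listed anywhere, 5 of them here, and of 50 histone genes, 7 were listed anywhere and 3 here. From 35 DNA replication genes, 4 were listed anywhere and only Pclaf here. All 4 cytoskeleton genes listed anywhere, out of 20 in that list, were listed for Monocyte prog I, and 1 of them (Crip1) also for Macrophages. Of 18 matrix and adhesion genes, 8 were listed anywhere, 3 here and 5 for Macrophages. S100a10 was the 1 entry from 11 S100 and annexin genes, and Tmpo the 1 entry from 16 chromatin and nuclear envelope genes, of which 6 and 9 were listed anywhere.

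The lists of other cell types had no entry in Monocyte prog I. This holds for 23 macrophage genes, 20 myeloid progenitor and primary granule genes, 21 secondary granule and neutrophil genes, 20 lymphoid genes and 14 dendritic genes, of which 6, 16, 18, 13 and 8 were listed for some other population. It also holds for 28 osteoclast differentiation genes and for 21 genes of cathepsins, legumain and cystatins, the targets and relatives of Cst6, of which 4 and 5 were listed elsewhere. The 12 erythroid, 12 plasma cell and 15 stroma and endothelium genes were listed for no population. A list holds at most 20 genes, so a gene that is missing may still be present in these cells, and its level is unknown. As to the label, the entries held monocyte genes and cell cycle genes, while no gene of the myeloid progenitor list was among the 20. F13a1, Fn1, Itga1 and Top2a mark the population by its own list and are no check of it. Of 4 widely used monocyte genes, Ly6c2, Ccr2, Csf1r and Cx3cr1, none was among them either.

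Cell cycle genes (mitosis, replication and histone lists together) made up 9 of the 20 genes of Monocyte prog I, or 45%. Immature Neutrophils I had 8 of 15 (53.3%), Immature Neutrophils II 6 of 15 and Immature Neutrophils III 2 of 6. Monocyte prog II had 2 of 20, namely Mcm3 and Macroh2a1, of which Macroh2a1 is counted only because it stands in the histone list. Macrophages and Monocytes had 0 of 20. By this count the cell cycle entries of the 4 monocyte and macrophage populations lay mostly in Monocyte prog I.

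Monocyte prog I shared 10 of its 20 genes with other populations. Over all 17 populations, the 50 genes listed for more than 1 population made up 109 of 293 entries. Of the 20 genes of Macrophages, 12 were listed for no other population, and of the 15 of Immature Neutrophils I, 5 were. With Macrophages it shared 5 genes, which are 25% of the 20 genes of each. With Immature Neutrophils I it also shared 5, which are 25% of its own genes and 33.3% of the 15 of that population. With a gain of at least 25 points asked of both populations, the genes shared with Immature Neutrophils I fell to 1 (Kif11) and those shared with Macrophages to 4. Macrophages and Immature Neutrophils I had no listed gene in common, so no gene could be shared with both. The genes shared with Macrophages were F13a1, Fn1, Crip1, Ms4a6c and Ifi30, all of them in the monocyte list. Those shared with Immature Neutrophils I were Top2a, Mki67, Kif11, H1f4 and H1f5, all of the cell cycle. F13a1 was also listed for Monocyte prog II, Ms4a6c for Monocytes and H1f5 for Pre/pro B cells, and 11 populations shared no gene. The other 10 genes were listed here alone: Itga1, Tubb5, S100a10, Prc1, Tmsb10, Pclaf, Tuba1b, Tmpo, Birc5 and H2ax.

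Over the genes shared with Macrophages, shares in Monocyte prog I were higher for 4 of 5, with a median difference of 0.4 points. F13a1 had a value in 99.2% of Monocyte prog I cells and 98.1% of Macrophages. Ms4a6c had a value in 97.6% against 95.1% of Macrophages and 93.2% of Monocytes. Fn1 (97.1% and 96.7%), Crip1 (99.2% and 98.9%) and Ifi30 (96.8% and 96.9%) lay within 0.4 points of each other. F13a1 in Monocyte prog II stood at 98.9%, and the shares of the gene in the 3 populations differed by at most 1.1 points.

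Over the genes shared with Immature Neutrophils I, shares in Monocyte prog I were lower for 4 of 5, with a median difference of -0.8 points. The linker histone genes differed most, with H1f5 at 96.1% and 98.2% and H1f4 at 95.8% and 97.6%. Kif11 stood at 96.3% and 97.1%, and Top2a at 99.7% and 99.8%. Mki67 had a value in 99.9% of the cells of each. No error is known for these differences, and they were not tested.

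**Figure D3:**
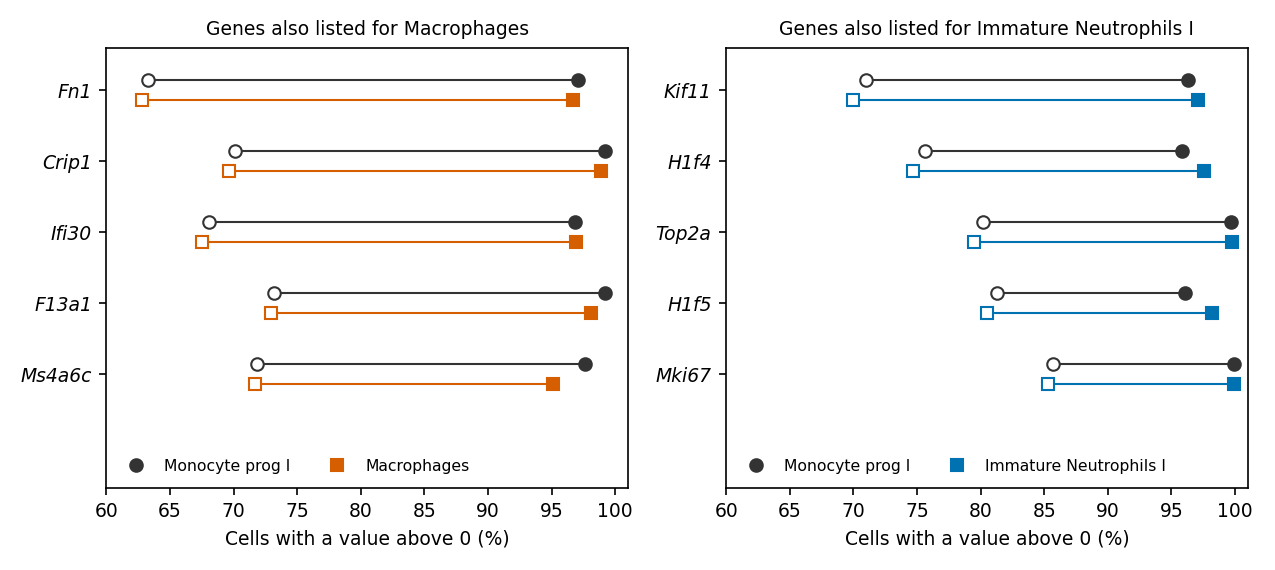
Percent of cells with a value above 0 (x axis, from 60%) for the 5 genes also listed for Macrophages (left) and the 5 also listed for Immature Neutrophils I (right). Filled symbols stand for the population and open symbols for all cells outside it, with gray circles for Monocyte prog I. Paired filled symbols lie at most 2.5 points apart, for Ms4a6c.

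Each compared population also listed genes that Monocyte prog I did not. No share inside Monocyte prog I is known for these genes, so the populations differ here in listing only. For Macrophages, the 5 with the largest gain were Wfdc17 (94.7% against 56.1% of other cells), Emilin2 (96.5% against 63.1%), Ms4a4c (92.2% against 60.7%), Ctss, the lysosomal cysteine protease cathepsin S (99.4% against 68.6%), and Tgfbi, a matrix protein induced by TGF-beta (97.1% against 67.5%). For Immature Neutrophils I they were Cebpe, a transcription factor of granulocyte maturation (95.8% against 60.3%), Fcnb, a lectin of neutrophil granules (92.8% against 66.4%), and the histone genes H3c3 (98.3% against 68.4%), H2ac8 (96.3% against 70.2%) and H4c4 (98.5% against 73.5%). Monocyte prog I and Immature Neutrophils I, the populations with the highest shares of cell cycle entries, both listed the linker histone genes H1f4 and H1f5. Of other histone genes, Monocyte prog I listed H2ax, and Immature Neutrophils I listed the core histone genes H3c3, H2ac8 and H4c4. The share of these 4 genes in the population that did not list them is unknown.

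The genes shared with Macrophages had gains of 25.8 to 33.8 points, with a median of 28.7, and those shared with Immature Neutrophils I had gains of 14.2 to 25.3 points, with a median of 19.5. The 10 genes listed here alone ranged from 15.2 to 40.8 points, with a median of 25.45.

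The table gives no cell numbers, but genes listed for several populations tie the sizes of these together. For such a gene, the share inside and the share outside must add up to the same share of all cells whichever population is used. With 50 such genes in 109 entries, each share correct to its rounding and all populations adding up to 100%, the bounds for Monocyte prog I were 9.05% and 10.1% of all cells, with all mice pooled. The equations assume that every entry was computed over the same cells. They could all be met at once within 0.000355 of a share (as a fraction of cells), below the rounding of 0.0005. Monocyte prog I was the fifth largest of the 17 populations by the middle of its bounds. At this tolerance and with the sum fixed, its bounds overlapped with those of no other. Macrophages held 10.6% to 11.6% and Immature Neutrophils I 12.0% to 13.1%. Monocyte prog II held 6.37% to 7.41% and Monocytes 1.52% to 2.82%. Monocyte prog I was 1.46 to 1.74 points smaller than Macrophages, 2.65 to 3.18 points smaller than Immature Neutrophils I, and 2.38 to 3.19 points larger than Monocyte prog II. The 4 monocyte and macrophage populations together made up 28.0% to 31.3%. The range of each size is the room that rounding leaves and not an error over mice. The sizes hold for the mix of groups in the pool. The study reports fewer macrophages in CST6 mice, so the order of sizes may differ between groups, which was not tested.

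**Figure D4:**
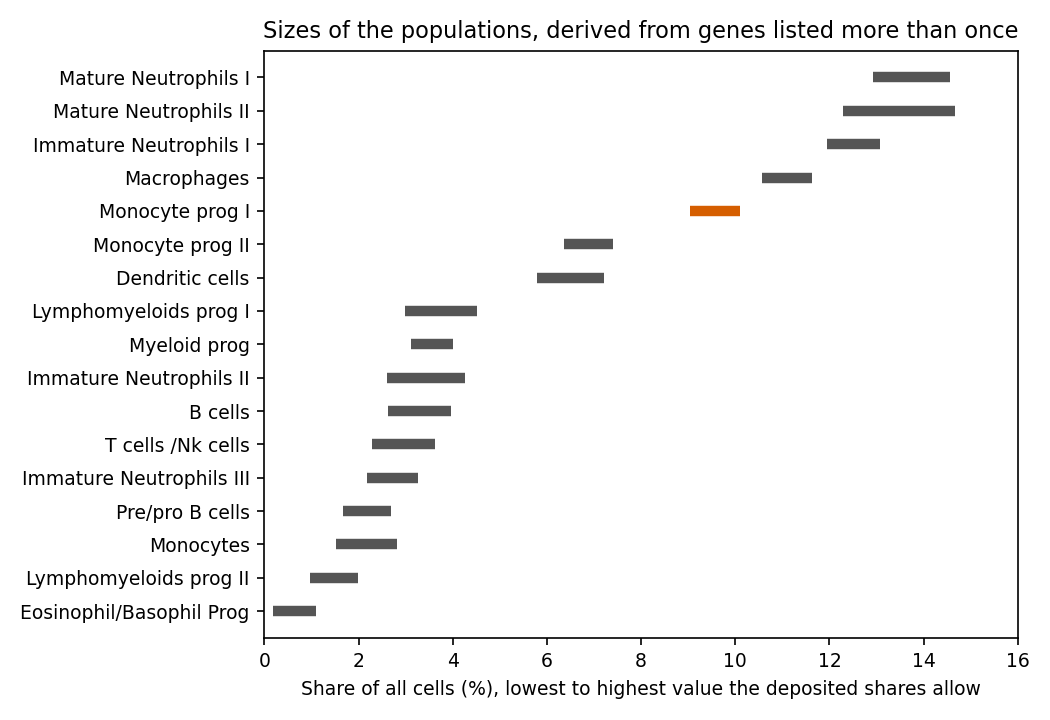
Share of all cells (x axis, in percent) for each of the 17 populations, where a bar runs from the lowest to the highest size that the deposited shares allow. Monocyte prog I, in orange, lies between 9.05% and 10.1%, below Macrophages and above Monocyte prog II.

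With its size, the place of the cells with a value can be bounded for each gene. Of all marrow cells with a value for H2ax, 14.9% to 16.5% lay in Monocyte prog I, the highest part among the 20 genes. For Fn1 it was 13.2% to 14.7%, for F13a1 11.9% to 13.2%, and for Mki67 10.4% to 11.6%, where the lower bound was the lowest of the 20. Even for the genes that mark it, most cells with a value above 0 thus lay in other populations. Whether these cells held the transcript cannot be told, since the kind of value is not stated. In cells outside all populations that list the gene, a value was still present in 58.3% to 59.0% for Fn1, in 66.5% to 67.4% for F13a1, in 76.8% to 77.3% for Top2a and in 83.3% to 83.6% for Mki67.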

How the data were processed

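Libraries were Chromium 3′ v3.1 single-cell RNA-Seq of marrow mononuclear cells. Per the submitters' processing notes and the study's methods, the authors used Cell Ranger, mm10 and Seurat 4, filtered cells on detected genes and mitochondrial share, integrated samples by reciprocal principal component analysis and clustered them by the Louvain method. No source used here gives the treatment of doublets. The methods name MAST for markers, while the columns are those of Seurat's ROC test.

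The deposited fraction of cells above 0, inside a population and in all others, was used as a percentage. The other 4 columns hold the authors' own comparisons (AUC, average difference, power and log2 fold change) and were not used. There were 0 columns of values per sample, so the table gives no depth, and no test was run.

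Named were all genes of Monocyte prog I and, for each compared population, the 5 unshared genes with the largest gain. Members and lists were chosen with earlier results of these data known. Sizes were bounded by linear programming in SciPy 1.17.1 (Python 3.11.15), with a tolerance of 0.0005 on each fraction. The code was checked on simulated tables that meet the same equations by design, which does not check the equations' assumptions. Alternatives changed the summary, the scale, the equations and the promoter window. Promoters were matched by symbol to RefSeq windows of GRCm38.p6, the assembly behind mm10.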

Additional observations from a re-analysis of the deposited data

How the results depend on the processing

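Of 22 alternatives, 19 left the value within the range set for no change and 3 moved it. On a ratio scale the median gain became a ratio of 1.36 between the share inside and that of other cells, which is another scale. With a gain of at least 25 points asked of both populations, the genes shared with Immature Neutrophils I fell from 5 to 1 (Kif11), while those shared with Macrophages went from 5 to 4. With only Monocyte prog I, Macrophages and Immature Neutrophils I in the equations, the size had a midpoint of 11.7% and bounds of 6.69% and 16.8%, since fewer equations hold it. Without each of 10 genes in turn, the bounds stayed between 8.87% and 10.2%. They were 8.53% and 11.2% without a fixed sum, and 8.27% and 10.8% at a tolerance of 0.001. In a window from 100 bases before the start, CHR was in 4 of 8 cell cycle members (9.23% of all genes) and CCAAT in 6 of 8 (26.3%). No paired analysis was possible because the table holds no values per sample. The table gives neither depth nor cell numbers and no counting interval was computed; shares near 100% leave little room for a difference.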
